A study of Mus musculus with 8 samples.

Results

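The genes described here are 39 nuclear hormone receptors, chosen by name as members of that family, and all 39 were found among the 30890 genes of the table. They do not make up every nuclear receptor of the mouse. E12.5 kidneys from wild-type C57BL/6 mice were cultured for 72 h on a floating filter with 0.1% DMSO, the solvent control, or with 5 µM CHIR99021, an inhibitor of GSK-3β, the kinase whose block lets β-catenin build up. RNA was sequenced from 4 kidneys in each group, and both groups were kept in the same medium with insulin, transferrin and selenium. According to the study's methods, the left kidney of an embryo went to the DMSO group and the right kidney to the CHIR99021 group, and kidneys that did not show the usual changes of Wnt target genes were left out, so the samples stand for responding kidneys. The paper and the sample labels name different kits for RNA extraction and library preparation.

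Nuclear receptors are transcription factors, and many of them are switched by small fat-soluble ligands such as steroids, retinoic acid, vitamin D, bile acids and oxysterols. They bind short DNA elements built around the letters AGGTCA or a close relative, alone, as homodimers or with a retinoid X receptor (RXR) as partner, and recruit coactivators or corepressors. In the developing kidney, retinoic acid receptors are known for their part in ureteric bud branching, and the mineralocorticoid and vitamin D receptors for salt and calcium handling in the distal nephron.

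Counts summed to between 14599082 and 17751992 per sample. The DMSO-treated samples were not alike in liver transcripts, since 9 liver genes summed to 58.9, 1341, 8.08 and 946 CPM in DMSO replicates 1 to 4 and to between 1.25 and 7.80 CPM with CHIR99021, and the counts of called receptors are therefore also given without DMSO replicates 2 and 4. The kidney label was borne out by 12 ureteric bud, nephron lineage and stromal genes, all detected in every group, which summed to between 1314 and 1630 CPM with DMSO and between 649 and 736 CPM with CHIR99021, and 12 of 12 fell. CPM are counts scaled to a common library size after TMM adjustment, the unit in which levels are given. A gene is said to rise or fall where edgeR's quasi-likelihood test gave an adjusted p (Benjamini-Hochberg over all tested genes) under 0.05, and each log2 fold change compares CHIR99021 to DMSO, negative where the treated kidneys were lower, with its standard error as SE.

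Of the 39 receptors, 32 had enough counts to be tested and 7 did not (*Esr2*, *Rxrg*, *Nr1i2*, *Nr1i3*, *Nr2e3*, *Hnf4g* and *Nr0b1*). Among the 32 tested, 6 rose and 13 fell without pairing. With the replicate number as a block, 23 were called (6 higher and 17 lower), beside 8472 of 16723 tested genes. The 19 called without pairing were 59.4% of those tested, beside 48.7% of all 16723 tested genes, of which 23.7% rose and 25% fell. With the added requirement of an absolute log2 fold change over 1, 10 receptors remained, of which 3 rose (*Rorb*, *Nr1h4*, *Esr1*) and 7 fell (*Nr5a1*, *Nr3c2*, *Esrrg*, *Esrrb*, *Nr5a2*, *Vdr*, *Nr1d2*). This was 31.2% of the tested receptors beside 13.8% of all tested genes (4.65% higher and 9.16% lower). The values of the groups did not overlap in 16 of the tested receptors (6 higher and 10 lower), beside 46.1% of all tested genes. The median log2 fold change was -0.22 over the tested receptors and -0.0029 over all tested genes. In 6 of the 32 (*Nr3c2*, *Esrrb*, *Nr1h4*, *Rorb*, *Nr5a1* and *Nr5a2*), only 1 group reached the count limit in all its samples. These entered the test mainly through the group where they are high, and all 6 are among the 10 past the fold limit. The shares above are therefore a description, and the adjusted p of these 6 given below carry the same limit. Without DMSO replicates 2 and 4, 18 receptors were called, beside 6611 of 17292 tested genes, and 9 receptors passed the fold limit. *Nr1d2* then missed the fold limit (log2 fold change -0.99, the same as without CHIR99021 replicate 1) and *Nr3c1* was no longer called (edgeR adjusted p = 0.0909). In whole kidneys, fewer cells of a type and less RNA per cell cannot be told apart, which holds for every value below.

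**Figure D1:**
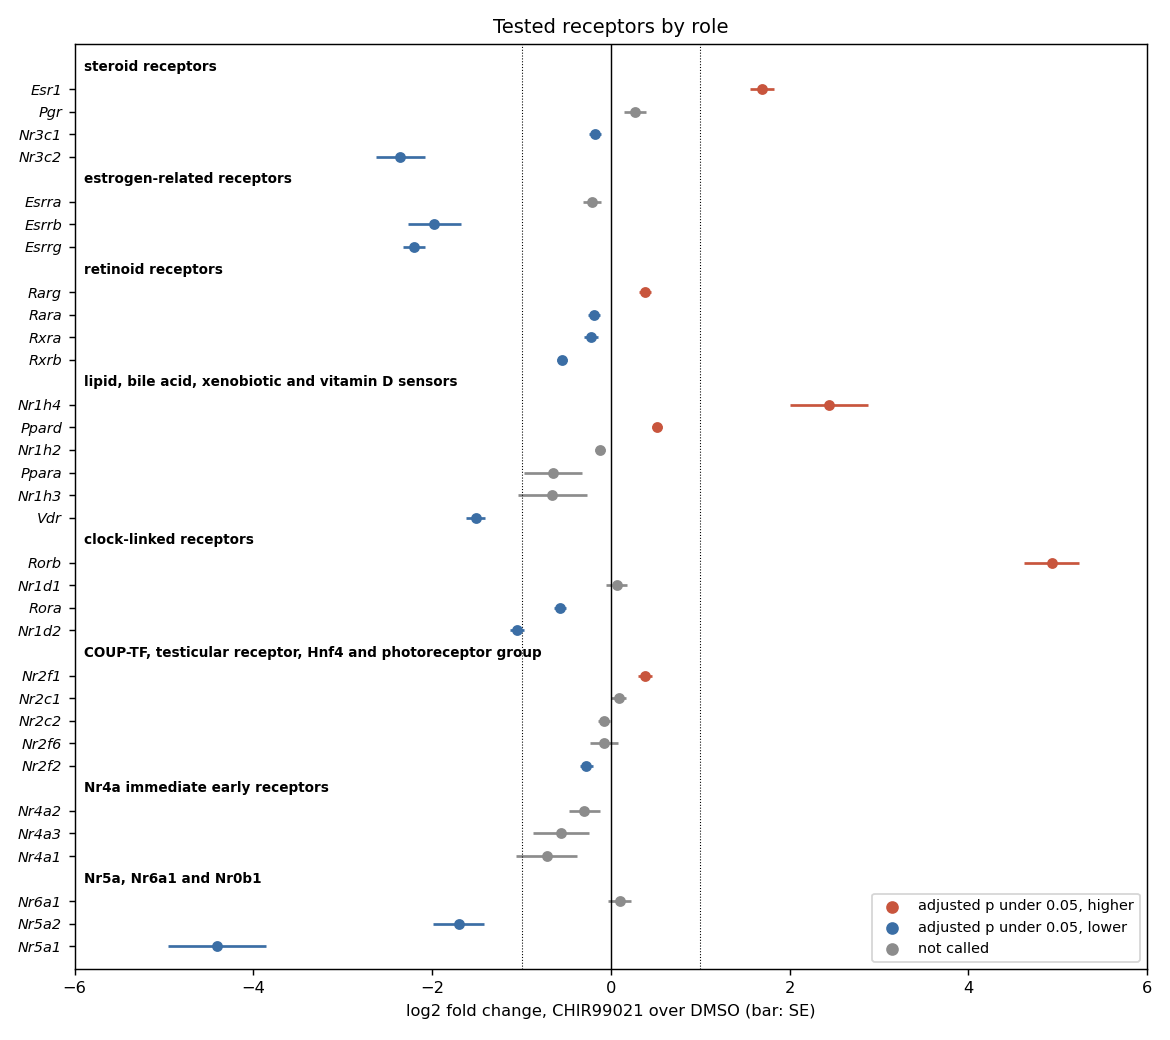
Log2 fold change (CHIR99021 over DMSO, x axis) of the 32 tested receptors, grouped by role (y axis), with bars for the SE and dotted lines at an absolute log2 fold change of 1. In the unpaired test, red points rose (6), blue points fell (13) and grey points were not called (13). *Rorb* at 4.93 and *Nr5a1* at -4.41 lie farthest out.

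Levels of different genes were compared per length, in FPKM as deposited. *Nr2f2* (COUP-TFII), a receptor of mesenchyme and veins, stood highest of the 39 in both groups, at 47.04 ± 3.65 FPKM with DMSO and 35.4 ± 3.39 FPKM with CHIR99021. Behind it with DMSO came *Nr4a1* at 23.4 ± 9.70 FPKM and *Nr1h2* at 21.2 ± 1.09 FPKM, whose ranges over samples overlapped. The glucocorticoid receptor *Nr3c1* (15.1 FPKM) and *Rxra* (14.7 FPKM) followed. The order of levels changed by 6 or more ranks for 5 receptors. *Rorb* went from rank 36 to 25, *Nr1h4* from 32 to 24, *Ppard* from 10 to 3 and *Esr1* from 24 to 18, while *Esrrg* went from rank 13 to 22. Summed over the 39 receptors, FPKM lay between 240.7 and 256.9 with DMSO and between 186.1 and 202.4 with CHIR99021, without overlap. FPKM are not corrected for library composition, and a test on them moved the median log2 change of all genes by -0.12.

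**Figure D2:**
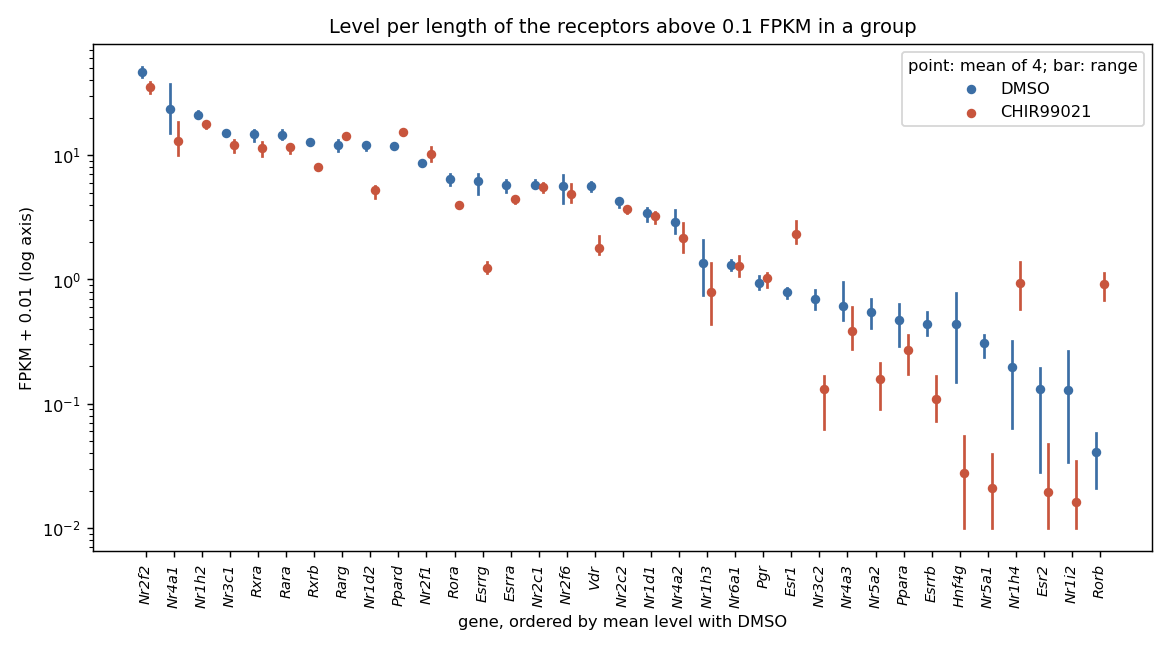
Level per length (FPKM + 0.01, log axis) of the receptors above 0.1 FPKM in a group, ordered by their mean with DMSO, with points for the mean of 4 samples and bars for their range. *Nr2f2* stands highest in both groups at 47.0 and 35.4 FPKM, and the bars of *Rorb*, *Esr1*, *Esrrg* and *Vdr* lie apart between the groups.

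Promoters were searched for 9 of the 10 receptors past the fold limit and for the Nr4a receptors, immediate early genes that were lower in every treated kidney than in its partner. Shown are the windows that held a searched motif and, for contrast, that of *Rorb*, the receptor with the largest rise. The others, of *Esr1*, *Nr3c2*, *Esrrb*, *Vdr*, *Nr4a1* and *Nr4a2*, held none, so the windows below were picked for their motifs and stand for no common feature. Each is the 250 bases before a RefSeq transcript start in GRCm38.p6, 5′ to 3′ on the gene's strand. Capitals mark matches on either strand to the TCF/LEF core (CTTTGAA or CTTTGAT), the receptor core (AGGTCA) or the cAMP response core (TGACGT). The *Rorb* window, chr19:19111197-19111446 on the minus strand at the outermost of its starts, held none of them, nor did the other *Rorb* start. The *Nr1h4* window, chr10:89506659-89506908 on the minus strand at a start inside the gene, held a receptor core 209 bases before the start. The *Nr1d2* window, chr14:18239107-18239356 on the minus strand, held a receptor core 72 bases before the start, and the *Nr5a2* window, chr1:136960449-136960698 on the minus strand, held a receptor core 59 bases before the start, while the other *Nr5a2* start had none. The *Esrrg* window, chr1:187651991-187652240 on the plus strand, held a TCF/LEF core 49 bases before this start, and no motif lay before the other *Esrrg* starts. The *Nr4a3* window, chr4:48045055-48045304 on the plus strand, held 3 cAMP response cores at 226, 200 and 142 bases before the start.
Rorb: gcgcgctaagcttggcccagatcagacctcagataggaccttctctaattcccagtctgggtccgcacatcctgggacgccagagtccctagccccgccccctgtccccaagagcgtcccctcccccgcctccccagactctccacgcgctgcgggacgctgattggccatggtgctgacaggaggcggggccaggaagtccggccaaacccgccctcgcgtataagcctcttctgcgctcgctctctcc
Nr1h4: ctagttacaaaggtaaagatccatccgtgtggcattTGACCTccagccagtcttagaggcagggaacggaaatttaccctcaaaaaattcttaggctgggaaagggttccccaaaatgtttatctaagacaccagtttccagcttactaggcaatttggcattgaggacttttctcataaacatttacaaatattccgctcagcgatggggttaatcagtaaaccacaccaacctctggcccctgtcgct
Nr1d2: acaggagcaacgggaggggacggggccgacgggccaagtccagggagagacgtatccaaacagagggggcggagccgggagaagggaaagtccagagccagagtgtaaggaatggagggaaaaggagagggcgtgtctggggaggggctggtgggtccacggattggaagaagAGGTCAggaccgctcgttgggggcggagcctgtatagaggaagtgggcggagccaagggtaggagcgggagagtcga
Nr5a2: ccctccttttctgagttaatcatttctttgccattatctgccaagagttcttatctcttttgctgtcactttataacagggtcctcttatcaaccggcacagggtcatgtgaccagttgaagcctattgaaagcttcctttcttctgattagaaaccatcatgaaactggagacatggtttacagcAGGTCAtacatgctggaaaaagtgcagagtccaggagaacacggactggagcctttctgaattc
Esrrg: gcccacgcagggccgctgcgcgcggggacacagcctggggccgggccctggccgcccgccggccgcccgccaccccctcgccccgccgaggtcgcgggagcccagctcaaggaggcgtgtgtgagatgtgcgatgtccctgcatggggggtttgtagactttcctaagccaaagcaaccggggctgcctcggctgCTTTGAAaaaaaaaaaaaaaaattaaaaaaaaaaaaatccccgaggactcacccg
Nr4a3: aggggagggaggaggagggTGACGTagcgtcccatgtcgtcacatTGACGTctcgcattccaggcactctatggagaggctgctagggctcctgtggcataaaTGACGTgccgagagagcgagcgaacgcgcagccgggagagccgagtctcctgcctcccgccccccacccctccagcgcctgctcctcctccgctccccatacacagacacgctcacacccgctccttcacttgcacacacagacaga
RefSeq promoters were found for 36 of the 39 receptors, with 53 starts among 32851. The TCF/LEF core lay in 3 of the 53 windows (*Esrrg*, *Nr1i2*, *Nr2f2*), beside 7.48% of all windows. The receptor core lay in 8 of the 53 (*Nr0b1*, *Nr1d2*, *Nr1h4*, *Nr5a2*, *Nr6a1*, *Rarg*, *Rxra*, *Rxrg*), beside 14.0% of all windows, and the cAMP response core in 2 (*Nr2c1*, *Nr4a3*), beside 6.47%. An E-box (CACGTG), the letters bound by clock factors, lay in 3 (*Esr2*, *Nr1i3*, *Rara*), beside 6.02%. A match is a run of letters and does not show binding.

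Among the steroid receptors, *Esr1* rose and the corticoid receptors fell, *Nr3c2* strongly and *Nr3c1* slightly. *Esr1* encodes estrogen receptor α. It stood at 10.4, 10.8, 9.02 and 10.9 CPM in DMSO replicates 1 to 4 and at 33.1, 42.8, 29.6 and 27.7 CPM in CHIR99021 replicates 1 to 4. Every treated kidney lay above every control, with replicate 2 the highest, and *Esr1* was 3.23-fold higher with CHIR99021 (log2 fold change 1.69, SE 0.13, edgeR adjusted p = 9.10e-07). *Esr1* lies at chr10:4611593-5005614 on the plus strand of GRCm38. *Nr3c2* encodes the mineralocorticoid receptor, the aldosterone sensor of the distal nephron and collecting duct, at chr8:76899442-77245012. It stood at 3.90, 5.02, 4.63 and 3.53 CPM in DMSO replicates 1 to 4 and at 0.874, 1.07, 0.359 and 0.986 CPM in CHIR99021 replicates 1 to 4. All treated kidneys lay below all controls, and *Nr3c2* was 5.12-fold lower (log2 fold change -2.36, SE 0.27, edgeR adjusted p = 1.47e-05). *Nr3c1*, the glucocorticoid receptor, was at 107 ± 2.91 CPM with DMSO and 94.2 ± 9.31 CPM with CHIR99021, with overlapping groups (log2 fold change -0.18, SE 0.07, edgeR adjusted p = 0.0355). The call of *Nr3c1* was lost when DMSO replicate 1, 2 or 3 or CHIR99021 replicate 3 or 4 was left out, with an edgeR adjusted p of up to 0.104. The fold of *Nr3c2* differed from that of *Nr3c1* by -2.23 on the log2 scale. Such differences between related receptors were chosen after their values were seen and are given here and below as descriptions, with no test. *Pgr*, the progesterone receptor, was at 7.61 ± 0.687 CPM with DMSO and 9.18 ± 0.982 CPM with CHIR99021 and was not called (log2 fold change 0.27, SE 0.12, edgeR adjusted p = 0.0933). *Esr2*, encoding estrogen receptor β, was not tested and had 27 counts over the DMSO group and 2 over the CHIR99021 group, a ratio of 11.9 of DMSO over CHIR99021 with an exact 95% counting interval of 2.98 to 103.0 that covers counting error only. In DMSO replicate 3 it had 1 count, which overlapped the treated group.

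Of 10 genes that handle or answer corticoids, 4 rose and 4 fell, with a median log2 fold change of 0.06. Of all tested genes 48.7% were called, 23.7% higher and 25% lower. The same shares stand beside the counts of all other gene lists and markers, which are descriptions. The early response genes *Sgk1*, a kinase that promotes sodium uptake (log2 fold change 1.59, edgeR adjusted p = 3.69e-06), and *Klf9* (1.28, edgeR adjusted p = 1.35e-08) rose. *Hsd11b2*, the enzyme that shields the mineralocorticoid receptor from cortisol and corticosterone (-1.09, edgeR adjusted p = 1.80e-05), and the sodium channel subunit *Scnn1a* (-1.31, edgeR adjusted p = 1.09e-04) fell as *Nr3c2* did. Of 8 chaperones that hold steroid receptors ready for ligand, 3 rose (*Hsp90aa1*, 0.25, *Hsp90ab1*, 0.24, and *Stip1*, 0.17) and 1 fell, the glucocorticoid-induced *Fkbp5* (-0.61), with a median of 0.14.

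**Figure D3:**
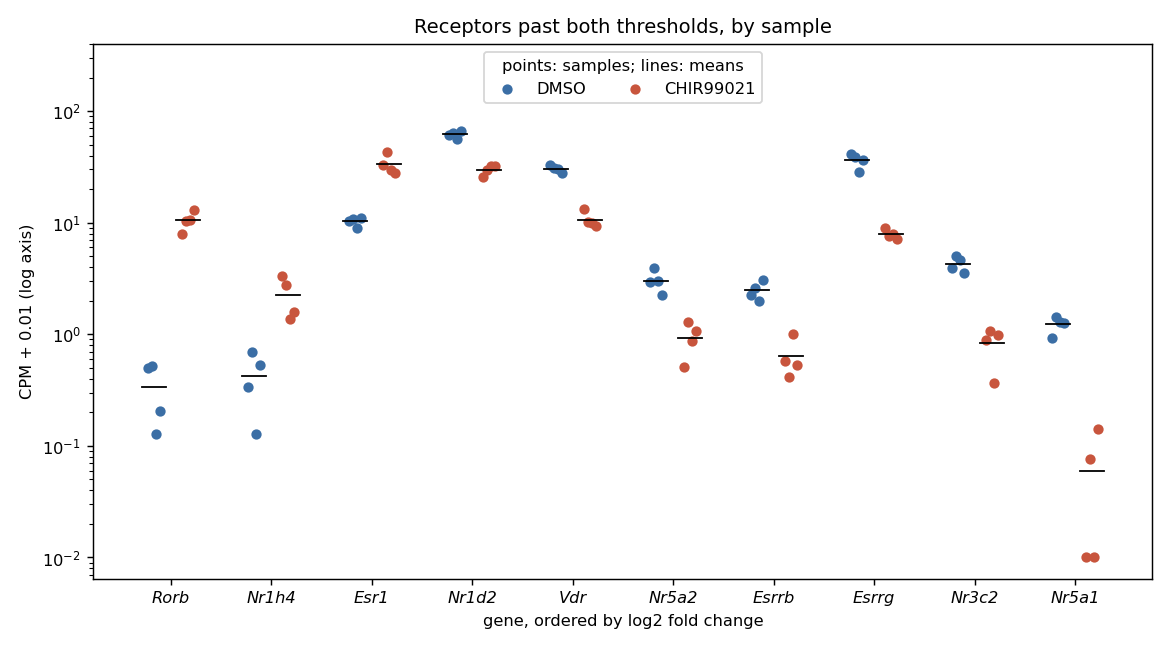
CPM + 0.01 (log axis) in each of the 8 samples for the 10 receptors past both thresholds, ordered by log2 fold change, with points for samples and lines for group means. In each of the 10 the DMSO and CHIR99021 points lie apart, and *Nr5a1* is at 0 CPM in 2 treated kidneys.

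The estrogen-related receptors bind no estrogen and drive genes of mitochondrial energy metabolism together with the coactivators Ppargc1a and Ppargc1b. *Esrrg* and *Esrrb* fell, and *Esrra* was not called. *Esrrg*, at chr1:187608791-188214885, stood at 41.6, 39.1, 28.6 and 36.8 CPM in DMSO replicates 1 to 4 and at 8.92, 7.63, 7.97 and 7.17 CPM in CHIR99021 replicates 1 to 4. The treated kidneys lay close together and far below the controls, of which replicate 3 was the lowest, and *Esrrg* was 4.60-fold lower (log2 fold change -2.20, SE 0.12, edgeR adjusted p = 2.30e-08). *Esrrb*, best known from pluripotent cells and the inner ear, at chr12:86361117-86521628, stood at 2.22, 2.57, 1.99 and 3.08 CPM in DMSO replicates 1 to 4 and at 0.562, 0.402, 1.00 and 0.526 CPM in CHIR99021 replicates 1 to 4. The groups did not overlap, CHIR99021 replicate 3 was the highest of the treated kidneys, and *Esrrb* was 3.94-fold lower (log2 fold change -1.98, SE 0.30, edgeR adjusted p = 1.21e-04). *Esrra* was at 13.8 ± 1.35 CPM with DMSO and 11.9 ± 0.665 CPM with CHIR99021 (log2 fold change -0.22, SE 0.10, edgeR adjusted p = 0.0987). The change of *Esrrg* differed from that of *Esrra* by -1.98 on the log2 scale, and that of *Esrrb* by -1.77. Per length, *Esrrg* made up 49.9% ± 5.87 of the summed FPKM of the 3 receptors with DMSO and 21.03% ± 1.76 with CHIR99021 (SD, n = 4), while the share of *Esrra* was 46.6% and 77.3%.

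The share of counts from mitochondrial genes was higher in the CHIR99021 libraries (3.48 to 4.14%) than in the DMSO libraries (2.47 to 3.20%), without overlap, and its part in the values of the estrogen-related receptors and their coactivators was not tested. These coactivators fell as well. *Ppargc1a* was at 23.7 ± 3.25 CPM with DMSO and 7.78 ± 1.06 CPM with CHIR99021 (log2 fold change -1.60, SE 0.13, edgeR adjusted p = 4.83e-07), and *Ppargc1b* at 10.6 ± 0.965 CPM with DMSO and 3.27 ± 0.736 CPM with CHIR99021 (log2 fold change -1.70, SE 0.17, edgeR adjusted p = 3.52e-06). They were among 6 of 14 nuclear receptor coactivators that fell, with 0 that rose and a median log2 fold change of -0.15. The 6 called of 14 stand beside 48.7% of all tested genes (23.7% higher and 25% lower). *Ncoa1* (log2 fold change -0.45) and *Ncoa7* (-0.45) were the next by p. Of 12 corepressors, 3 rose and 4 fell, beside 23.7% and 25% of all tested genes, with a median of -0.09. These included *Rere* (0.39) and *Hdac3* (0.27), which rose, and *Tbl1xr1* (-0.37), which fell.

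**Figure D4:**
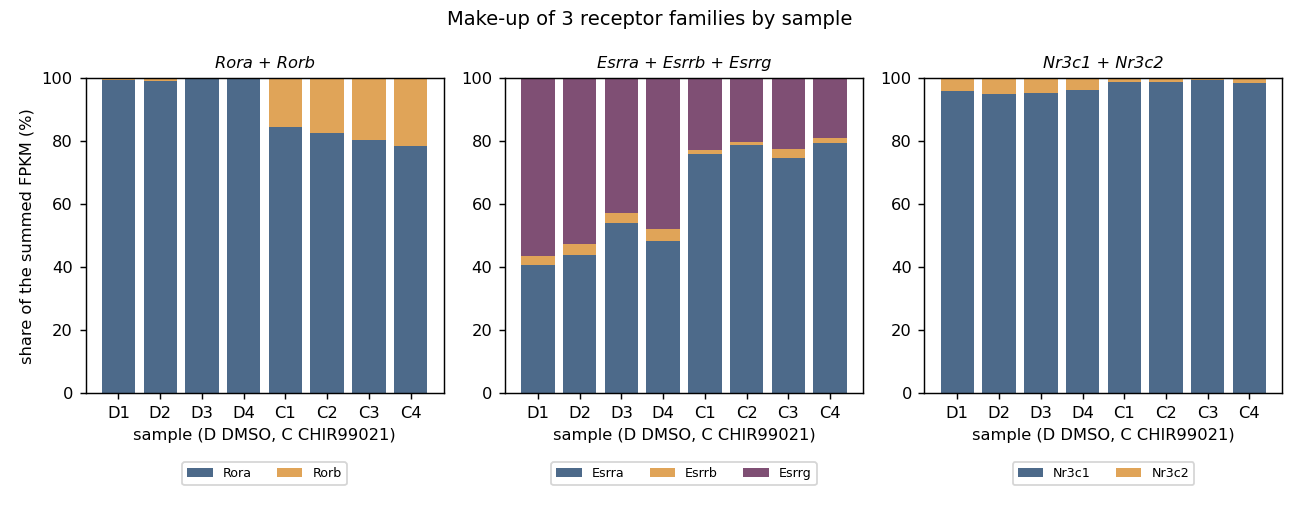
Share of the summed FPKM (%, y axis) taken by each receptor of 3 families in DMSO samples 1 to 4 (D1 to D4) and CHIR99021 samples 1 to 4 (C1 to C4). The *Rorb* share averages 0.465% with DMSO and 18.5% with CHIR99021, the *Esrrg* share 49.9% and 21.03%, and the *Nr3c2* share 4.37% and 0.993%.

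The 4 tested retinoid receptors were all called, beside 48.7% of all tested genes, and none passed the fold limit. *Rarg*, a retinoic acid receptor, stood at 43.4, 42.4, 51.6 and 51.4 CPM in DMSO replicates 1 to 4 and at 61.7, 61.6, 61.2 and 61.1 CPM in CHIR99021 replicates 1 to 4. The treated kidneys lay within 1 CPM of each other and above all controls, with a log2 fold change of 0.38 (SE 0.07, edgeR adjusted p = 6.87e-04). *Rara*, the other retinoic acid receptor of the set, was at 60.5 ± 4.08 CPM with DMSO and 52.99 ± 4.19 CPM with CHIR99021, with overlapping groups (log2 fold change -0.19, SE 0.07, edgeR adjusted p = 0.0367). The change of *Rarg* differed from that of *Rara* by 0.58 on the log2 scale. Of the RXR partners, *Rxrb* stood at 46.6, 43.2, 45.6 and 44.95 CPM in DMSO replicates 1 to 4 and at 32.1, 29.9, 30.5 and 31.1 CPM in CHIR99021 replicates 1 to 4. The groups did not overlap, and *Rxrb* fell by 0.55 on the log2 scale (SE 0.06, edgeR adjusted p = 5.32e-06). *Rxra* was at 76.6 ± 5.75 CPM with DMSO and 65.6 ± 6.83 CPM with CHIR99021, with overlapping groups (log2 fold change -0.22, SE 0.08, edgeR adjusted p = 0.0314). Leaving out control 1 or 3, or treated kidney 3 or 4, ended the call of *Rara*, with an edgeR adjusted p of up to 0.123. Leaving out control 1, 3 or 4, or treated kidney 1 or 3, ended that of *Rxra*, with an edgeR adjusted p of up to 0.0883. The changes of *Rxrb* and *Rxra* differed by -0.32 on the log2 scale, and *Rxrb* was lower in the treated kidney of 4 of 4 pairs and *Rxra* in 3 of 4. At least 23.4% of all tested genes were lower in 4 of 4 pairs. *Rxrg* had 15 counts with DMSO and 2 with CHIR99021, a ratio of 6.60 with a counting interval of 1.53 to 59.4.

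Among the lipid, bile acid, xenobiotic and vitamin D sensors, *Nr1h4* and *Ppard* rose and *Vdr* fell. *Nr1h4* encodes the bile acid receptor FXR, at chr10:89454234-89533585. It stood at 0.325, 0.685, 0.117 and 0.523 CPM in DMSO replicates 1 to 4 and at 3.31, 2.74, 1.36 and 1.58 CPM in CHIR99021 replicates 1 to 4. All treated kidneys lay above all controls, with replicates 1 and 2 above 3 and 4, and *Nr1h4* was 5.42-fold higher (log2 fold change 2.44, SE 0.44, edgeR adjusted p = 5.22e-04). Its change differed from that of its relative *Nr1h2* by 2.62 on the log2 scale. Without DMSO replicates 2 and 4 its log2 fold change was 3.28. It remained a low transcript in both groups, at 0.187 ± 0.111 FPKM with DMSO and 0.929 ± 0.381 FPKM with CHIR99021. *Ppard*, a fatty acid sensor expressed in most tissues, stood at 51.9, 52.02, 49.9 and 55.6 CPM in DMSO replicates 1 to 4 and at 73.4, 77.2, 76.7 and 71.5 CPM in CHIR99021 replicates 1 to 4. The groups lay well apart with little spread in either, for a log2 fold change of 0.51 (SE 0.05, edgeR adjusted p = 5.70e-06). *Ppara*, the activator of fatty acid oxidation in liver and proximal tubule, was at 1.68 ± 0.526 CPM with DMSO and 1.06 ± 0.388 CPM with CHIR99021 and was not called (log2 fold change -0.65, SE 0.32, edgeR adjusted p = 0.117). The changes of *Ppard* and *Ppara* differed by 1.18 on the log2 scale. *Nr1h2* and *Nr1h3* encode the oxysterol receptors LXRβ and LXRα. *Nr1h2* was at 68.02 ± 3.54 CPM with DMSO and 62.5 ± 3.34 CPM with CHIR99021 (log2 fold change -0.12, SE 0.06, edgeR adjusted p = 0.105). *Nr1h3* stood at 3.52, 5.02, 2.64 and 1.77 CPM in DMSO replicates 1 to 4 and at 3.56, 1.81, 1.72 and 1.12 CPM in CHIR99021 replicates 1 to 4. The groups overlapped and *Nr1h3* was not called (log2 fold change -0.66, SE 0.38, edgeR adjusted p = 0.186). With the replicate number as a block, so that each treated kidney is set against its own partner, *Nr1h3* was lower at an edgeR adjusted p = 0.0478. Without CHIR99021 replicate 1 the unpaired value was -1.07 (edgeR adjusted p = 0.0285). Macrophages are among the cells that use LXRα, and 9 of 9 macrophage markers fell, their sum going from between 77.9 and 248.8 CPM with DMSO to between 25.8 and 48.9 CPM with CHIR99021, with none at 0. Their part in the values of *Nr1h3* was not tested.

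*Vdr*, the vitamin D receptor, at chr15:97854425-97910630, stood at 32.7, 31.00, 30.1 and 27.9 CPM in DMSO replicates 1 to 4 and at 13.2, 10.04, 9.98 and 9.33 CPM in CHIR99021 replicates 1 to 4. The groups did not overlap, CHIR99021 replicate 1 was the highest of the treated kidneys, and *Vdr* was 2.86-fold lower (log2 fold change -1.51, SE 0.11, edgeR adjusted p = 2.15e-07). Of 7 genes that make, degrade or answer vitamin D, 2 rose and 3 fell, with a median log2 fold change of -0.37. Of all tested genes, 23.7% rose and 25% fell. The calcium-binding proteins of the distal nephron and ureteric tree *Calb1* (-3.34, edgeR adjusted p = 4.42e-09) and *S100g* (-3.96, edgeR adjusted p = 3.32e-09) fell, each further than *Vdr* itself. The calcium channel *Trpv6* (0.91, edgeR adjusted p = 7.88e-04) and *Cyp27b1*, the enzyme that makes the active hormone (1.30, edgeR adjusted p = 0.00305), rose. Of 10 LXR target genes, 1 rose, the sterol exporter subunit *Abcg5* (0.79), and 4 fell, among them *Lpl* (-2.83), *Abcg1* (-1.39) and *Abca1* (-0.58), with a median of -0.07. Fat cell markers fell in 3 of 3 tested of 5, a description, since genes high with DMSO alone enter the test through that group. Their sum went from between 112 and 168 CPM to between 35.8 and 39.6 CPM, with *Lep* at 0 with CHIR99021. The part of fat cells in the values of these lipid genes was not tested. Of 16 target genes of PPAR and estrogen-related receptors in fatty acid oxidation, 4 rose and 7 fell, with a median of -0.12. The lipid droplet protein *Plin2* (1.02) and the carnitine carrier *Slc25a20* (0.50) rose, and the oxidation enzymes *Acadm* (-0.40) and *Ehhadh* (-1.17) fell.

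The xenobiotic receptors were barely detected. *Nr1i2*, encoding the pregnane X receptor of liver and gut, had 3, 11, 1 and 5 counts in DMSO replicates 1 to 4 and 0, 1, 0 and 0 counts in CHIR99021 replicates 1 to 4. It was highest in DMSO replicates 2 and 4, the samples with the most liver transcripts, and its ratio of DMSO over CHIR99021 was 17.6 with a counting interval of 2.81 to 729.0. *Nr1i3*, its relative CAR, had 2 counts in each group, and 74.9% of its exon bases also lie in *Tomm40l* on the opposite strand, so even these counts are uncertain. Of 8 liver target genes of these receptors, 0 had enough counts to be tested. The liver markers summed to the values given above, 3 of 3 tested of 9 fell, and *Ttr* was at 0 with CHIR99021. Genes high with DMSO alone enter the test through that group, so this count is a description. The part of liver cells in the values of *Nr1i2* was not tested.

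Among the receptors tied to the circadian clock, the repressor Rev-erbα (*Nr1d1*) was not called, while its relative Rev-erbβ (*Nr1d2*) and the activator *Rora* fell and *Rorb* rose. *Rorb*, known from retina, brain and bone, lies at chr19:18930605-19111196 on the minus strand. It stood at 0.487, 0.514, 0.117 and 0.196 CPM in DMSO replicates 1 to 4 and at 7.93, 10.4, 10.6 and 12.9 CPM in CHIR99021 replicates 1 to 4. In raw counts this was 9, 9, 2 and 3 counts in DMSO replicates 1 to 4 and 127, 156, 148 and 196 counts in CHIR99021 replicates 1 to 4. The lowest treated kidney was far above the highest control, and *Rorb* was 30.5-fold higher (log2 fold change 4.93, SE 0.31, edgeR adjusted p = 6.86e-08). With all 8 samples this was the largest change in either direction among the tested receptors. Without CHIR99021 replicate 4 the log2 fold change of *Rorb* was 4.82 and that of *Nr5a1* was -5.35, so the order turned. *Rora* stood at 88.6, 84.2, 78.3 and 71.1 CPM in DMSO replicates 1 to 4 and at 51.4, 58.3, 51.7 and 55.6 CPM in CHIR99021 replicates 1 to 4. The groups did not overlap, and *Rora* fell by 0.57 on the log2 scale (SE 0.07, edgeR adjusted p = 2.90e-05). The 2 changes differed by 5.62. Per length, *Rorb* took 0.644, 0.715, 0.176 and 0.325% of the summed FPKM of the pair in DMSO replicates 1 to 4 and 15.4, 17.4, 19.5 and 21.5% in CHIR99021 replicates 1 to 4, so *Rora* stayed the more abundant of the pair. *Nr1d2*, at chr14:18204054-18239127, stood at 61.3, 63.8, 56.6 and 66.4 CPM in DMSO replicates 1 to 4 and at 25.9, 29.5, 32.2 and 31.9 CPM in CHIR99021 replicates 1 to 4. The groups lay apart, and *Nr1d2* was 2.08-fold lower (log2 fold change -1.06, SE 0.08, edgeR adjusted p = 3.14e-07). *Nr1d1* was at 9.97 ± 1.12 CPM with DMSO and 10.4 ± 0.877 CPM with CHIR99021 (log2 fold change 0.06, SE 0.12, edgeR adjusted p = 0.684), and its log2 fold change turned negative on the FPKM scale. Of its exon bases, 8.55% also lie in *Thra* on the opposite strand. The change of *Nr1d2* differed from that of *Nr1d1* by -1.12.

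Of 15 clock genes, 4 rose and 7 fell, beside 23.7% and 25% of all tested genes, with a median log2 fold change of -0.36. *Per2* (-1.05, edgeR adjusted p = 6.37e-07), *Dbp* (-1.64, edgeR adjusted p = 1.08e-06) and *Per3* (-0.99, edgeR adjusted p = 5.12e-06) fell, as *Nr1d2* did. *Nfil3*, a repressor that binds the sites of Dbp (0.50, edgeR adjusted p = 3.16e-05), rose. All kidneys were taken after 72 h, with no series over the day. The hour of sampling is not given in the study's methods.

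The COUP-TF receptors moved in opposite directions and by less than the fold limit. *Nr2f2* stood at 423, 352, 395 and 382 CPM in DMSO replicates 1 to 4 and at 289, 302, 341 and 349 CPM in CHIR99021 replicates 1 to 4. The highest treated kidney lay just below the lowest control, and *Nr2f2* fell by 0.28 on the log2 scale (SE 0.07, edgeR adjusted p = 0.00604). Its exons share 7.46% of their bases with *B130024G19Rik* on the opposite strand. Of the cell types that use COUP-TFII, 6 of 6 endothelial markers fell, their sum going from between 368 and 515 CPM to between 141 and 193 CPM. Of 8 stromal markers 2 rose and 4 fell, with a median log2 fold change of -0.31. Their sum was nevertheless higher, at 2215 to 2977 CPM with DMSO and 4644 to 5668 CPM with CHIR99021. None of these markers was at 0, and their part in the values of *Nr2f2* was not tested. *Nr2f1* (COUP-TFI) stood at 44.8, 41.3, 41.6 and 40.8 CPM in DMSO replicates 1 to 4 and at 51.7, 47.8, 58.2 and 62.1 CPM in CHIR99021 replicates 1 to 4. The groups did not overlap, and it rose (log2 fold change 0.38, SE 0.08, edgeR adjusted p = 0.00149), though on the log2(FPKM + 0.1) scale it was not called (0.24, limma adjusted p = 0.0589). The 2 changes differed by -0.65 on the log2 scale. *Nr2f6* was at 16.2 ± 3.42 CPM with DMSO and 15.3 ± 2.40 CPM with CHIR99021 (log2 fold change -0.08, SE 0.16, edgeR adjusted p = 0.713), and 54.4% of its exon bases also lie in *Ocel1* on the opposite strand. The testicular receptors *Nr2c1*, at 25.1 ± 2.15 CPM with DMSO and 26.6 ± 1.98 CPM with CHIR99021, and *Nr2c2*, at 60.99 ± 4.77 CPM with DMSO and 57.9 ± 3.05 CPM with CHIR99021, were not called (log2 fold change 0.09 and -0.08). *Nr2c2* shares 30.7% of its exon bases with *Mrps25* on the opposite strand, and since the strand setting of the counting is unknown, reads of such partners cannot be told apart. *Nr2e3*, a photoreceptor gene, had 0 counts with DMSO, which allows up to 3 counts over the group, and 1 with CHIR99021. *Hnf4g*, a receptor of gut and kidney epithelium, had 20, 34, 6 and 14 counts in DMSO replicates 1 to 4 and 2, 0, 1 and 0 counts in CHIR99021 replicates 1 to 4. It missed the count limit, yet its groups did not overlap, and its ratio of DMSO over CHIR99021 was 21.7 with a counting interval of 7.14 to 107.6. Proximal tubule markers summed to 247, 234, 75.2 and 138 CPM in DMSO replicates 1 to 4 and to between 67.2 and 99.3 CPM with CHIR99021. Of 7 tested, 4 fell, with none at 0, and their part in the values of *Hnf4g* was not tested.

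The Nr4a receptors are immediate early genes, induced within minutes to hours by many stimuli and active without a known natural ligand. None was called without pairing, where the groups overlapped, but each was lower in the treated kidney of 4 of 4 pairs. This pattern was common. In 23.4% of all tested genes every treated kidney lay below every control, so at least these were lower in 4 of 4 pairs too. *Nr4a1* stood at 44.4, 88.5, 53.4 and 35.6 CPM in DMSO replicates 1 to 4 and at 26.3, 48.6, 31.4 and 28.9 CPM in CHIR99021 replicates 1 to 4. Replicate 2 was the highest in both groups, and the unpaired test gave no call (log2 fold change -0.72, SE 0.34, edgeR adjusted p = 0.129). With the replicate number as a block it fell (log2 fold change -0.68, SE 0.09, edgeR adjusted p = 7.16e-05). *Nr4a2* stood at 10.4, 14.2, 9.08 and 11.1 CPM in DMSO replicates 1 to 4 and at 8.86, 12.1, 7.03 and 8.41 CPM in CHIR99021 replicates 1 to 4. Replicate 2 was again the highest in both groups, and *Nr4a2* was not called without the block (log2 fold change -0.30, SE 0.18, edgeR adjusted p = 0.189) and fell with it (log2 fold change -0.30, SE 0.11, edgeR adjusted p = 0.0319). *Nr4a3* stood at 2.92, 5.48, 2.87 and 2.62 CPM in DMSO replicates 1 to 4 and at 1.75, 3.75, 2.30 and 1.64 CPM in CHIR99021 replicates 1 to 4. DMSO replicate 2 lay far above the other controls, and *Nr4a3* too was not called without the block (log2 fold change -0.56, SE 0.31, edgeR adjusted p = 0.163) and fell with it (log2 fold change -0.56, SE 0.18, edgeR adjusted p = 0.0238). With the block, 23 receptors were called in all (6 higher and 17 lower), these 3 and *Nr1h3* being the additions. Of all 16723 tested genes, 8472 were called in that fit (4096 higher and 4376 lower).

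**Figure D5:**
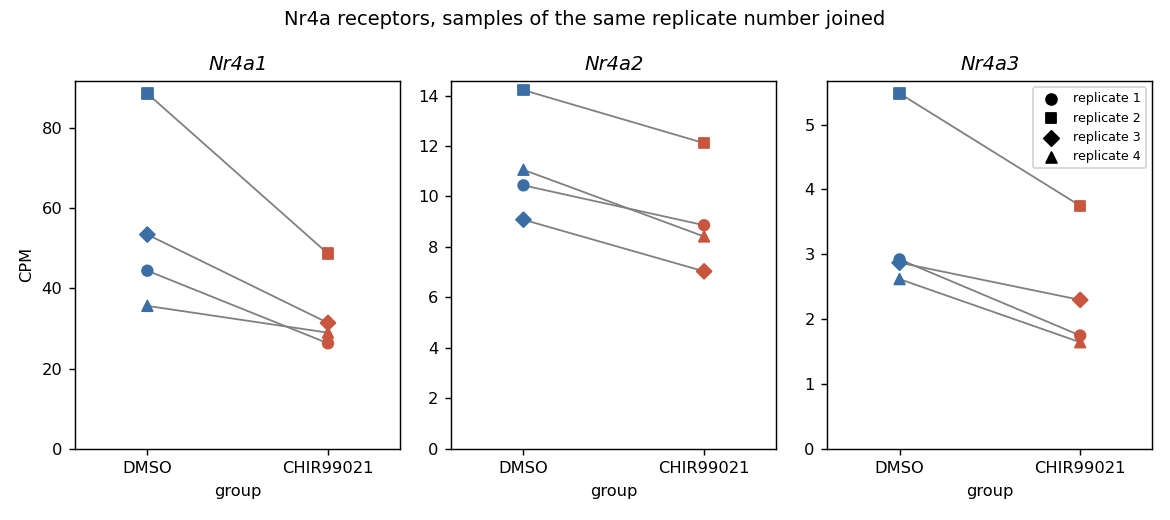
CPM of *Nr4a1*, *Nr4a2* and *Nr4a3* (y axes from 0) in the DMSO and CHIR99021 groups, with a line joining samples of the same replicate number and 1 marker shape per number. All 12 lines, from 3 genes in the same 4 pairs, go down. Replicate 2 (squares) is the highest in each group, at 88.5 and 48.6 CPM for *Nr4a1*.

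The last group holds receptors known from gonad, adrenal gland, liver and germ line. *Nr5a1* encodes SF1, which sets up the adrenal cortex and gonads, at chr2:38692656-38714542. It stood at 0.920, 1.43, 1.29 and 1.24 CPM in DMSO replicates 1 to 4 and at 0, 0.0669, 0 and 0.131 CPM in CHIR99021 replicates 1 to 4. The controls were alike and the treated kidneys at or near 0, with 83 counts over the DMSO group and 3 over the CHIR99021 group, a ratio of 24.3 with a counting interval of 8.04 to 120.4 (fitted log2 fold change -4.41, SE 0.55, edgeR adjusted p = 2.64e-05). With so few counts the fitted fold depends on the method's prior, and without CHIR99021 replicate 4, which held 2 of the 3 counts, it was -5.35. Of 9 adrenal cortex markers 3 were tested and 0 called, and their sum lay between 14.0 and 16.6 CPM with DMSO and between 13.4 and 15.8 CPM with CHIR99021, most of it from *Star*. *Star*, the cholesterol transporter of steroid-making cells, was at 9.90 ± 1.05 CPM with DMSO and 10.8 ± 0.993 CPM with CHIR99021. *Cyp11a1*, the enzyme of the first step in steroid synthesis, had 15 counts in each group and *Cyp21a1* 1 in each. *Akr1b7*, a reductase of the adrenal cortex, had 75 counts with DMSO and 28 with CHIR99021 and was not called (log2 fold change -1.22, SE 0.68, edgeR adjusted p = 0.170). It was lower in 4 of 4 pairs, as were at least 23.4% of all tested genes. *Hsd3b1*, with 13 counts with DMSO, was at 0 with CHIR99021, and the ACTH receptor partner *Mrap* had 56 and 1. Of 7 gonad markers 4 were tested and 1 rose, *Foxl2*, with 0 counts with DMSO and 55 with CHIR99021. *Foxl2* entered the test through the CHIR99021 group alone, where it is high, so its call is a description. The sum of the gonad markers lay between 12.3 and 15.6 CPM with DMSO and between 12.1 and 14.8 CPM with CHIR99021. The part of these cells in the values of *Nr5a1* was not tested. *Nr5a2* (LRH-1), a receptor of liver, pancreas and early embryo, at chr1:136842571-136960448, stood at 2.92, 3.88, 2.99 and 2.22 CPM in DMSO replicates 1 to 4 and at 0.499, 1.27, 0.861 and 1.05 CPM in CHIR99021 replicates 1 to 4. The groups did not overlap, and *Nr5a2* was 3.26-fold lower (log2 fold change -1.71, SE 0.29, edgeR adjusted p = 3.13e-04). *Nr6a1* (GCNF), a repressor of pluripotency genes, was at 13.5 ± 1.38 CPM with DMSO and 14.4 ± 2.42 CPM with CHIR99021 and was not called (log2 fold change 0.10, SE 0.13, edgeR adjusted p = 0.564). *Nr0b1* (DAX1), a partner and repressor of SF1, had 2 counts with DMSO and 0 with CHIR99021, both under the floor of 3 counts over a group.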

How the data were processed

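The authors removed adaptor-containing and low-quality reads, used HISAT2 (version 2.0.5 in the submitters' processing notes) for alignment to GRCm38 and made the deposited counts, whole numbers per gene, with featureCounts. The deposited FPKM values are the authors' fragments per kilobase of gene, scaled to depth. Strand setting and annotation release: not given in the sources used here. This table also holds the authors' own comparison (mean signal, fold change, log2 fold change, p and adjusted p), which was not used. The depth was 14599082 to 17751992 counts per sample, and counting intervals and floors cover counting error only.

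Counts were analysed in R 4.3.3 with edgeR 4.0.16. filterByExpr (minimum count 10, minimum total 15) kept 16723 of 30890 genes, and groups were compared with TMM scaling, the robust quasi-likelihood test and Benjamini-Hochberg adjustment. The members and lists were chosen with earlier results of these data known. All members are accounted for, those past both thresholds by sample, and up to 4 genes of each pathway list by smallest p, of which 1 is not reported here. Values by sample for other members, the untested differences between relatives and marker genes beyond the lists' counts were chosen after their values were seen. Replicate numbers pair the samples: the study took both kidneys of an embryo, and after removal of group means same-numbered samples correlated at 0.111 to 0.346 across genes and others at -0.180 to 0.0766. Gene positions were those of GENCODE M21 for 35 of 39 receptors, and exon overlaps were taken from that annotation. RefSeq promoters (GRCm38.p6) were searched in Python 3.11.15. The alternatives were the replicate block, RLE and upper-quartile scaling, DESeq2 1.42.0, limma 3.58.1 on log2 counts or FPKM, no filter, at least 1 CPM in 4 samples, and each sample left out.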

Additional observations from a re-analysis of the deposited data

Results flagged for a closer look

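Each group of 4 samples was searched for a sample far from the other 3 in the 32 tested receptors, and 2 of 64 groups held one, where chance gives about 1 in 20. *Nr4a3* was at 5.48 CPM in DMSO replicate 2 and between 2.62 and 2.92 CPM in the other controls. *Esrra* was at 10.9 CPM in CHIR99021 replicate 3 and between 12.2 and 12.3 CPM in the other treated kidneys.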

How the results depend on the processing

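With the replicate block the number of called receptors went from 19 to 23 and none was lost, while called genes went from 8138 to 8472. Over the other settings 17 to 23 receptors were called. Leaving out single samples gave 17 to 22 receptors and 7438 to 7817 genes. *Nr3c1*, *Rara* and *Rxra* were the receptors that lost their call in this way, and *Hnf4g* entered the test and was called lower in 5 of the 8. *Hnf4g* entered through the DMSO group, where it is high, so these calls are a description and add no support. Calls were gained by *Nr1h3* and *Pgr* without CHIR99021 replicate 1, *Nr4a2* and *Nr4a3* without CHIR99021 replicate 2, and *Esrra* without DMSO replicate 1. With 1 sample fewer, 10 or 11 receptors passed the fold limit. Without CHIR99021 replicate 1 *Nr1d2* left this set (-0.99) and *Nr1h3* (-1.07) and *Hnf4g* joined it. On the log2(FPKM + 1) scale in limma 3 did (0 higher and 3 lower), since the pseudocount shrinks the change of receptors near or under 1 FPKM, and with a pseudocount of 0.1 it was 10. Without a filter 13 passed it, with *Hnf4g*, *Esr2* and *Nr1i2* added, and with at least 1 CPM in 4 samples 9, as *Nr5a1* left the test. Both FPKM scales moved the median of all genes, by -0.12 and -0.13, and the share of higher genes among all called ones from 48.6% to 29.5% and 29.2%. Upper-quartile scaling added *Esrra* and *Nr1h2* to the called receptors, and log2(count + 1) in limma *Pgr* and *Nr1h2*. The FPKM scales added *Nr2c2*, *Esrra* and *Nr1h2*, with *Nr4a1* at a pseudocount of 1. The receptors whose direction turned were not called in any of these settings. *Nr1d1* was at -0.0524 and -0.0659 on the 2 FPKM scales (pseudocount 1 and 0.1) and between -0.0041 and 0.124 with single samples left out, lowest without DMSO replicate 3. *Nr2c1* was at -0.0404 and -0.0467 on the FPKM scales. *Nr6a1* was at -0.0254 and -0.0450 there, and between -0.0060 (without CHIR99021 replicate 2) and 0.180 with single samples left out. *Nr2f6* was at 0.0305 in limma on log2(count + 1) and between -0.209 and 0.0166 (without DMSO replicate 3) with single samples left out. Low counts limit *Nr5a1*, *Rorb* and *Nr1h4* and the 7 untested receptors most.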
